A study of Mus musculus with 12 samples.

Results

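Skin taken 24 h after an intradermal injection of RNAdjuvant was compared with skin taken 6 h after it, with 3 samples at each time, 6 of the 12 samples of the study. RNAdjuvant is a non-coding RNA complexed with a cationic carrier peptide, made as a vaccine adjuvant. All mice were female Balb/c of no stated genotype change. The labels give a dose of 25 mg, a unit that could not be checked and may be a typing error for micrograms, and skin was also taken at 1.5 h (3 samples). The 3 control samples came from untreated mice, so the injection itself and the RNA cannot be told apart, and no vehicle group or untreated group matched in time was analysed here. The replicates are labelled biological, but nothing says that each came from its own mouse, so p-values measure only the spread between these samples, which may be technical. Every gene with a probe set carrying 1 gene symbol entered, 19938 genes in all. Values are log2 intensities of whole skin, so a change in the number of cells of a type and a change in RNA per cell cannot be told apart.

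Cells that detect foreign RNA through endosomal Toll-like receptors or the cytosolic helicases RIG-I and MDA5 release type I interferon and inflammatory cytokines. Interferon acts through the JAK-STAT pathway and switches on interferon-stimulated genes, many of which carry an interferon-stimulated response element (ISRE) near their start and encode proteins that block viral replication. The same signals induce their own inhibitors, and chemokines made in the first hours draw monocytes, neutrophils and natural killer cells into the tissue. Natural killer cells and cytotoxic T cells kill targets with perforin and granzymes.

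The promoters of 5 genes are shown because they hold the ISRE letters and yet moved differently. Cxcl10, Rsad2 and Ifit1 were lower at 24 h than at 6 h, and Bst2 and Gzma were higher. The rise of Bst2 no longer passed its test when 6 h replicate 2 or 3 or 24 h replicate 1 or 3 was left out. Each promoter runs 5′ to 3′ along the gene from 250 bases before to 50 after its start (RefSeq, GRCm38.p6), with ISRE matches in capitals. The letters searched, taken from general knowledge of the element, were 2 copies of GAAA with 2 free bases between them, on either strand, and matches may overlap.
Cxcl10 (chr5:92348840-92349139, minus strand): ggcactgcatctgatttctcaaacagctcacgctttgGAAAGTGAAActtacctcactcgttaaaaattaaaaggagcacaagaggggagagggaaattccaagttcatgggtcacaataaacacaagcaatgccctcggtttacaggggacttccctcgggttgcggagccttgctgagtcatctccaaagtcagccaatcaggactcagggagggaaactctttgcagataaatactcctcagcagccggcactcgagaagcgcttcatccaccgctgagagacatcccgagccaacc
Rsad2 (chr12:26456403-26456702, minus strand): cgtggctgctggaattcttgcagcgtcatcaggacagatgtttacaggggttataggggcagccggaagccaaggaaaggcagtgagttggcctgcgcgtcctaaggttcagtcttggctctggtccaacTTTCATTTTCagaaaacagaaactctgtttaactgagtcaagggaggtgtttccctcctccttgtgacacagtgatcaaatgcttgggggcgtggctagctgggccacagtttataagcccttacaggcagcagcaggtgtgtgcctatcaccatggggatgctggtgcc
Ifit1 (chr19:34640639-34640938, plus strand): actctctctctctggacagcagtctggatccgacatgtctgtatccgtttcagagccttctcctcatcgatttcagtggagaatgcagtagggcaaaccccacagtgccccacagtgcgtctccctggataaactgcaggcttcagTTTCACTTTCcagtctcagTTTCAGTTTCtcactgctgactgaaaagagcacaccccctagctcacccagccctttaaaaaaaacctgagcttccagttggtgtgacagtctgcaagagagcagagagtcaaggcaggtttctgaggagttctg
Bst2 (chr8:71537423-71537722, minus strand): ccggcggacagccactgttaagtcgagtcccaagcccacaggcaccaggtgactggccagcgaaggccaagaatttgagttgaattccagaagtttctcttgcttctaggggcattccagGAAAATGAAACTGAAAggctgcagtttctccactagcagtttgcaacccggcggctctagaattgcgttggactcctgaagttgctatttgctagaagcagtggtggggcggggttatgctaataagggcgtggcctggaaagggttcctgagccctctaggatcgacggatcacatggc
Gzma (chr13:113100932-113101231, minus strand): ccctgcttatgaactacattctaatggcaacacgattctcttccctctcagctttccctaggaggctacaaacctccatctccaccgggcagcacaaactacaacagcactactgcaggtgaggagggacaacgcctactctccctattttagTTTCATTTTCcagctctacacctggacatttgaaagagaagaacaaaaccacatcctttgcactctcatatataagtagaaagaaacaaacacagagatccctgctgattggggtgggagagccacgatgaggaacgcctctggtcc
Among the 15563 genes tested that had a RefSeq promoter of this length, 3.9% held the ISRE letters. The share was 17.0% of the 212 genes with a promoter that were lower at 24 h and 6.0% of the 318 that were higher. Within the antiviral list described below, 42.1% of the 19 lower genes and 41.7% of the 24 other genes with a promoter held the letters, so the letters did not separate the members that fell from those that did not. NF-kB motif letters (10 bases, either strand, overlap with other motifs allowed) stood in 11% of all promoters, 19.8% of those of the lower genes and 9.4% of those of the higher genes. The other motifs searched, on either strand with overlap allowed, were the STAT element GAS (TTCNNNGAA), the clock E-box (CACGTG) and the ROR element of clock genes, given by its name alone. GAS letters stood in 9.0% of all promoters, 13.7% of the lower and 7.5% of the higher genes' promoters. For the E-box these shares were 9.5%, 9.4% and 9.7%, and for the ROR element 0.6%, 1.4% and 0.6%. A match is a description of the letters and not of a bound site.

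Between 6 h and 24 h, 685 genes changed (3.44% of those tested; limma with Benjamini-Hochberg adjusted p under 0.05). Of these, 404 were higher at 24 h (2.03%) and 281 were lower (1.41%). At an adjusted p under 0.01, 149 changed (0.747%). At least 2-fold, 61 were higher (0.306%) and 74 lower (0.371%). Against untreated skin, 1215 genes changed at 6 h (6.09%) and 670 at 24 h (3.36%), in comparisons that share samples with this one. The median difference of the called genes was 0.60 on the log2 scale for the higher and 0.75 in size for the lower. Genes higher at 24 h were led by the granzymes Gzmb and Gzma, the myeloid receptors Clec12a, Lair1 and Cd300ld, the macrophage protein gene Aif1 and the clock repressor Nr1d1. Genes lower at 24 h were led by the collagenase Mmp13, the antiviral genes Cmpk2, Mx1, Mx2 and Rsad2, the cholesterol hydroxylase Ch25h and the chemokine Cxcl10.

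The number of calls rested heavily on single libraries, and library makeup differed. Leaving out 6 h replicate 2 gave 142 calls and leaving out 6 h replicate 3 gave 304, while 24 h replicates 1 and 3, each left out alone, gave 372 and 188. The higher calls numbered 243 without untreated replicate 3. The mean log2 level of 4 genes of glandular epithelium (Krt18, Krt19, Csn3 and Wfdc18) was 8.63 in 6 h replicate 1. It was 5.09 and 5.0 in 6 h replicates 2 and 3, against 7.49 to 8.17 at 24 h. Untreated libraries stood at 5.29 to 5.66 and 1.5 h libraries at 7.68 to 8.95. The comparisons with untreated skin are given without adjustment for this mean. Over 19 glandular genes the summed log2 level was 134.7, 101.2 and 101.0 at 6 h and 115.9 to 122.2 at 24 h, and 0 were called (limma, with 4 at an unadjusted p under 0.05). Against 6 h replicate 1 alone, which is then assumed to vary like the other groups, 37 genes were called, and 185 were called with the 4-gene mean as a covariate. Both settings were chosen after the data were seen. The lymph node venule gene Glycam1 stood at 10.88 in 6 h replicate 1 and at 3.99 to 4.24 in the other 5 libraries. The slow muscle gene Myl2 stood at 10.57 and 9.33 in 24 h replicates 1 and 3 and at 4.29 in 24 h replicate 2. Leaving out the libraries high in it keeps 24 h replicate 2 as the only library of its time. Fewer libraries can by themselves lower a count, so counts from that setting are no test of muscle content. Of 30 skeletal muscle genes, 1 was called (3.44% of all genes). Their summed level was 279.9 to 298.8 at 6 h and 278.5 to 327.4 at 24 h. Scaling moved the split of directions: higher genes made up 59.0% of the calls as deposited, 80.2% with arrays centred on their medians (which moved the median of all genes to 0.11) and 44.0% after cyclic loess. The genes given in detail are mainly those whose call held without each of the 12 libraries in turn, 65 of 137 named genes called, and the others are given with the libraries that ended their call. All 65 kept their sign against 6 h replicate 1 alone. That library is part of the difference by which they were chosen, so this was no separate test. In that setting 4 of the 65 differences were smaller by over 1.5 times. With the glandular covariate 62 were called. Across both times the skin genes checked, keratins and collagens among them, gave 0 calls of 10 (1 at an unadjusted p under 0.05). Krt5 was at 11.90 to 12.07 and Krt10 at 12.39 to 12.58 in all 6 libraries. The 10 differences ran from -0.82 to 0.08, and 8 were negative, beside 9367 of all 19938 genes. Their summed level was 111.3 to 112.0 at 6 h and 110.5, 112.1 and 108.1 at 24 h.

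**Figure D1:**
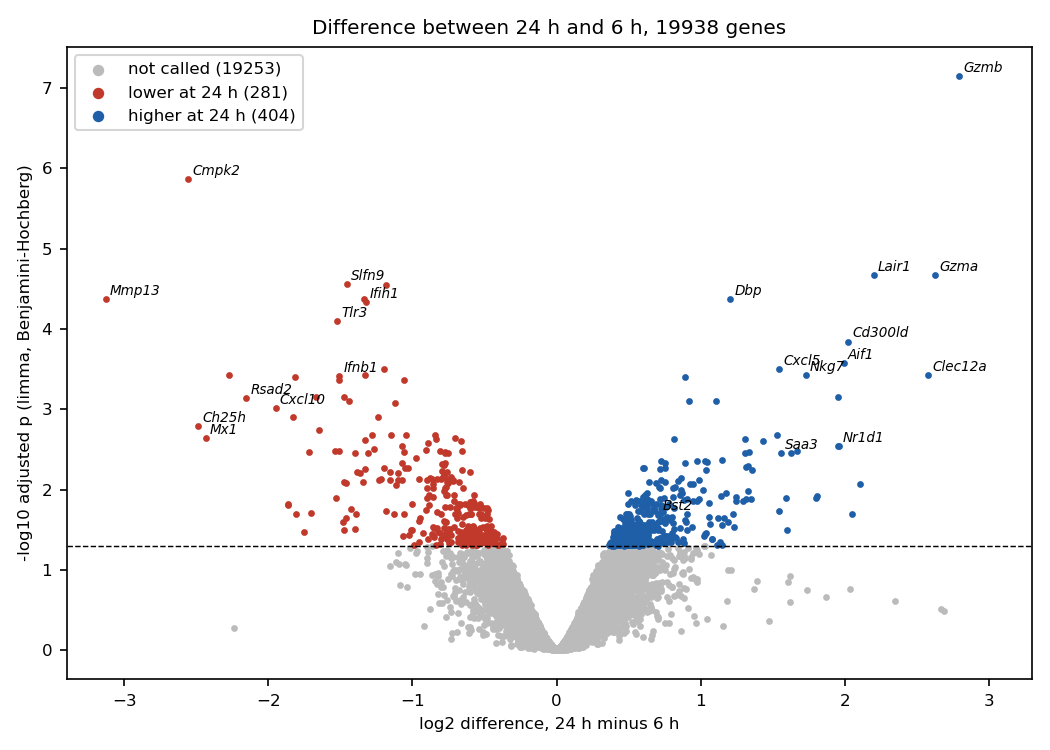
The log2 difference between 24 h and 6 h (x axis) against -log10 of the adjusted p (y axis) is plotted for each of 19938 genes, with the dashed line at an adjusted p of 0.05. The 281 lower genes (red) reach a difference of -3.13 at Mmp13, and the 404 higher genes (blue) reach 2.79 at Gzmb.

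Transcripts of interferon beta, the ligand that starts the interferon response, fell. Ifnb1 stood at 5.89, 5.96 and 5.87 in the 6 h libraries and at 4.23, 4.53 and 4.43 at 24 h. Every 24 h library was below every 6 h library and above the untreated range of 3.32 to 3.59. Ifnb1 fell by 1.51 on the log2 scale (SE 0.16, 2.84-fold, limma adjusted p = 0.000382). It was the 1 called member of 14 interferon ligand genes, and 2 were called without 1.5 h replicate 1. Ifna4 read 4.06, 4.62 and 4.04 at 6 h and 3.40 to 3.47 at 24 h (adjusted p = 0.162), and the type II interferon gene Ifng was at 4.45 to 5.08 and then 4.35 to 4.66 (adjusted p = 0.739).

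Of 55 antiviral interferon-stimulated genes, 27 were lower at 24 h and 1 was higher, beside 1.41% of all genes lower and 2.03% higher. The list's median difference was -0.70 against 0.02 over all genes. In the comparisons with untreated skin, which share samples with this one, 53 of the 55 were higher at 6 h (3.38% of all genes higher) and 53 at 24 h (2.55% of all genes higher), with medians of 2.60 and 1.92. By library the list's median over the untreated mean was 2.48 to 2.83 at 6 h and 1.81 to 2.05 at 24 h, so the times did not overlap. The count of lower members was 21 to 30 over the libraries left out, 25 with the glandular covariate, 9 without the libraries high in Myl2 and 7 against 6 h replicate 1 alone.

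Rsad2, which encodes the antiviral enzyme viperin, stood at 11.21, 11.33 and 11.49 at 6 h and at 9.28, 9.47 and 8.83 at 24 h. It fell by 2.15 on the log2 scale (SE 0.25, 4.45-fold, limma adjusted p = 0.000717), and its untreated libraries lay at 5.03 to 5.40. Cmpk2, a mitochondrial nucleotide kinase gene that neighbours it, read 10.25, 10.38 and 10.22 and then 7.79, 7.82 and 7.57. This 5.88-fold drop (adjusted p = 1.36e-06) had the smallest p among the genes that were lower. The dynamin-like GTPase gene Mx1 went from 9.64, 10.05 and 9.56 to 7.41, 7.62 and 6.92 (5.41-fold, adjusted p = 0.00226). Its neighbour Mx2 went from 9.69, 10.08 and 9.29 to 7.53, 7.49 and 7.24 (4.83-fold, adjusted p = 0.000376). In each of these 4 genes the time points were separated by more than the spread among replicates.

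Genes of the IFIT family encode proteins that bind viral RNA ends. Ifit1 went from 11.33, 11.44 and 11.13 to 9.66, 9.70 and 9.52, 3.19-fold lower (adjusted p = 0.000703). Ifit2 was 11.01, 11.09 and 11.21 and then 9.26, 9.65 and 9.26, 3.28-fold lower (adjusted p = 0.00336). Ifit3, picked after its values were seen, was 11.59, 11.48 and 11.41 and then 10.83, 10.73 and 10.80. Its times did not overlap, but the difference of -0.70 was not called (SE 0.27, adjusted p = 0.165), since the SE pools the spread of all 4 groups. Smaller falls were seen for Oasl1 (2.79-fold), an oligoadenylate synthetase-like inhibitor of Irf7 translation, for Slfn9 (2.75-fold) and for Usp18 (2.41-fold), which removes ISG15 and blocks the interferon receptor. The ubiquitin ligase genes Rnf213 and Trim25 were 2.61-fold and 1.78-fold lower, with limma adjusted p-values of 0.00596 and 0.00231.

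Not every antiviral gene followed. Zbp1, a sensor of Z-form nucleic acid, read 10.77, 10.61 and 10.55 at 6 h and 10.29, 10.58 and 10.25 at 24 h (difference -0.27, SE 0.23, adjusted p = 0.544). Rtp4 differed by -0.15 (SE 0.18) and Ifitm3, which blocks virus entry, by 0.09 (SE 0.11). Bst2, encoding tetherin, rose from 10.94, 10.74 and 10.58 to 11.49, 11.44 and 11.47 (1.63-fold, adjusted p = 0.0202). Its call was lost without 6 h replicate 2 (0.088), 6 h replicate 3 (0.0738), 24 h replicate 1 (0.0577) or 24 h replicate 3 (0.0782), all limma adjusted p-values. Against 6 h replicate 1 alone it differed by 0.52 (adjusted p = 0.472). Irf7, the factor that amplifies interferon production, was 10.40, 9.82 and 10.07 and then 10.32, 10.62 and 10.51 (adjusted p = 0.354).

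**Figure D2:**
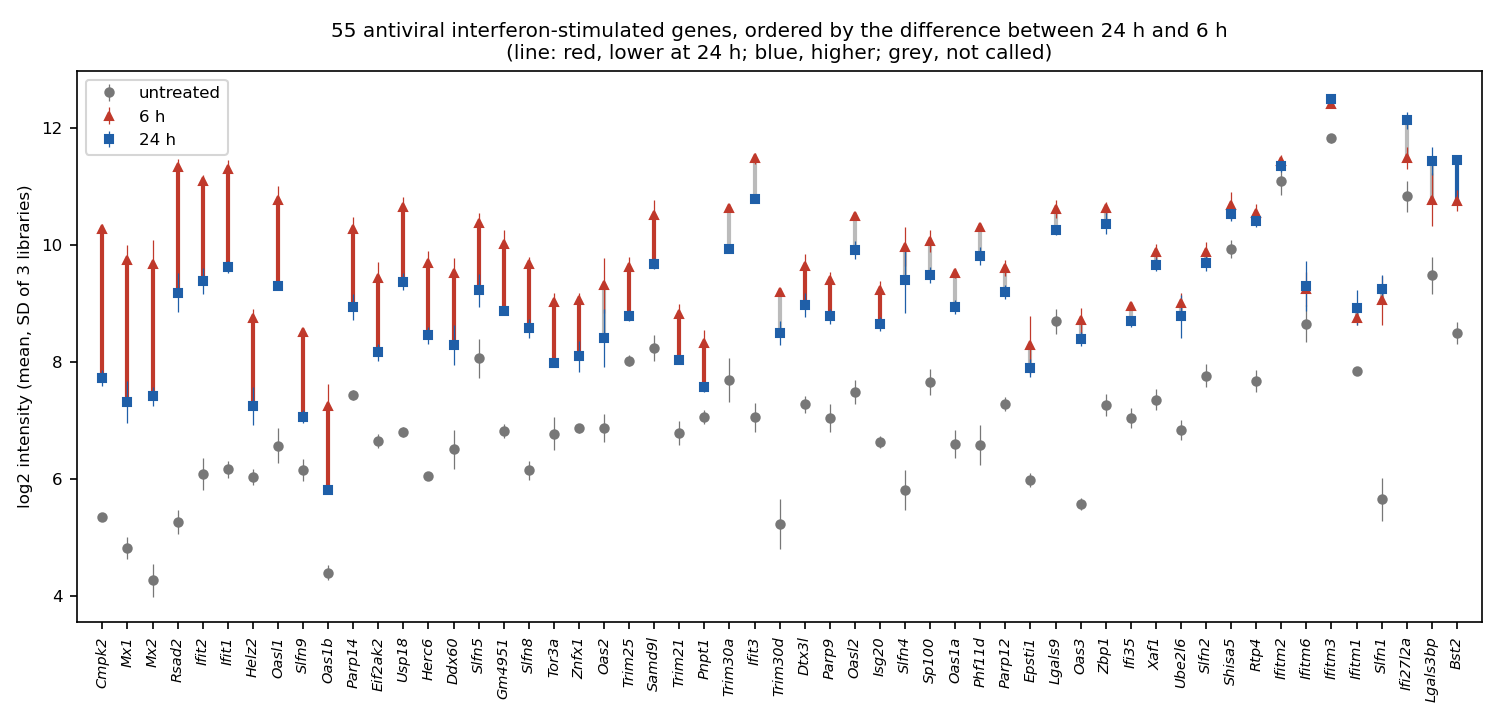
Mean log2 intensity with SD (n = 3) is shown on the y axis for the 55 antiviral genes, ordered on the x axis by the difference between 24 h and 6 h, with untreated skin in grey. Cmpk2 at the left fell by 2.56 on the log2 scale and Bst2 at the right rose by 0.71.

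Of 22 genes for sensors of foreign RNA or DNA and their adaptors, 7 were lower at 24 h and 0 higher (1.41% of all genes lower). The count was 5 to 6 over the libraries left out and 3 against 6 h replicate 1 alone. Tlr3, the endosomal receptor for double-stranded RNA, went from 9.20, 9.31 and 8.83 to 7.60, 7.65 and 7.52, 2.87-fold lower (limma adjusted p = 8.04e-05). Ifih1, encoding MDA5, went from 10.58, 10.68 and 10.52 to 9.20, 9.40 and 9.21, 2.50-fold lower (adjusted p = 4.64e-05). Ddx58, encoding RIG-I, went from 10.16, 10.15 and 9.80 to 8.98, 9.09 and 8.84, 2.10-fold lower (adjusted p = 0.00469). In each gene the 24 h libraries lay below the 6 h libraries and above the untreated ones, which for Ddx58 were at 7.16 to 7.39. The DNA sensor family gene Ifi203 was 1.86-fold lower (adjusted p = 0.00761). Dhx58, encoding the related helicase LGP2, differed by -0.63 (SE 0.20, adjusted p = 0.103).

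Toll-like receptor genes did not move together. Tlr13, a receptor for bacterial ribosomal RNA, rose from 6.96, 5.99 and 6.38 to 8.0, 8.40 and 8.81, 3.89-fold (adjusted p = 0.00289). Tlr1, a receptor for bacterial lipopeptides, was 3.49-fold higher (adjusted p = 0.0126), a call lost without 6 h replicate 2 (0.0763) or 24 h replicate 3 (0.0724). With Tlr3 these made 2 higher and 1 lower of the 10 Tlr genes measured (2.03% and 1.41% of all genes). The family was looked at after the values were seen.

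Among interferon receptors, JAK-STAT members and interferon regulatory factors, 3 of 14 were lower and 0 higher (1.41% of all genes lower). The count was 1 without 6 h replicate 2, without 24 h replicate 3 or with the glandular covariate. Irf1, an early inducer of interferon genes, went from 9.41, 9.73 and 9.66 to 8.67, 8.95 and 8.46, 1.88-fold lower (adjusted p = 0.0032). Stat2 missed the threshold (difference -0.58, SE 0.15, adjusted p = 0.0534), and Irf9 differed by -0.22 (SE 0.10). Gbp5, an interferon-inducible GTPase gene with a role in inflammasome assembly, was 2.51-fold lower (9.69, 9.85 and 10.02, then 8.52, 8.81 and 8.24; adjusted p = 0.00546). It was 1 of 3 lower among 8 such GTPases. That count was 1 with the glandular covariate. It was also 1 without any 1 of 6 h replicates 1, 2 and 3, 24 h replicates 1 and 3, untreated replicate 3 or 1.5 h replicate 3.

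Of 32 genes for inhibitors that the response itself induces, 10 were lower and 0 higher (1.41% of all genes lower), with a median difference of -0.20. The count was 4 without 6 h replicate 2, 5 without 6 h replicate 3, 24 h replicate 1 or 24 h replicate 3, and 4 with the glandular covariate. Socs1, which blocks JAK kinases, went from 7.30, 7.61 and 7.23 to 6.65, 6.51 and 6.58, 1.74-fold lower (limma adjusted p = 0.00475). The untreated libraries were at 6.23 to 6.43. Il10, the anti-inflammatory cytokine, went from 6.72, 6.34 and 6.29 to 4.8, 5.41 and 5.22, 2.48-fold lower (adjusted p = 0.00345). Against 6 h replicate 1 alone, Socs1 and Il10 differed by -0.72 and -1.58. Atf3, a repressor of inflammatory transcription, went from 9.17, 10.02 and 10.33 to 8.28, 8.61 and 8.54, 2.57-fold lower (adjusted p = 0.00615). Its lowest 6 h value was in replicate 1, and against that library alone the difference was -0.69 (adjusted p = 0.197). Socs3 differed by -0.53 (adjusted p = 0.186) and the interleukin-1 receptor antagonist gene Il1rn by -0.34 (adjusted p = 0.267).

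Of 31 inflammatory cytokine genes, 8 were lower and 0 higher (1.41% of all genes lower). The count was 3 without 6 h replicate 2 or 24 h replicate 3, 4 without 6 h replicate 3, 3 with the glandular covariate and 1 against 6 h replicate 1 alone. The steadiest were Tnfsf10, encoding the death ligand TRAIL, Il15, a growth factor of natural killer cells, and Osm. Tnfsf10 went from 8.78, 8.73 and 8.41 to 7.12, 6.93 and 6.43, 3.51-fold lower (adjusted p = 0.000398). Il15 went from 7.93, 8.43 and 8.45 to 7.03, 7.11 and 7.30, 2.18-fold lower (adjusted p = 0.000826). Osm was 2.32-fold lower (adjusted p = 0.00739) but was not called with the glandular covariate (adjusted p = 0.0568).

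For the classical fever and acute phase inducers the 6 h libraries differed more. Il6 stood at 6.00, 7.55 and 7.54 at 6 h and at 5.19, 5.67 and 4.98 at 24 h, 3.36-fold lower (adjusted p = 0.0338). The call was lost without 6 h replicate 2 (0.161), 6 h replicate 3 (0.11), 24 h replicate 1 (0.0857) or 24 h replicate 3 (0.142). Against 6 h replicate 1 alone, the library high in glandular genes, the difference of Il6 was -0.72 (adjusted p = 0.659). Ptx3, a secreted pattern recognition protein gene, showed the same order, 8.35, 9.66 and 9.98 and then 7.69, 7.77 and 6.95 (3.63-fold, adjusted p = 0.0152), and was lost without 6 h replicate 2 (0.0873), 6 h replicate 3 (0.0558) or 24 h replicate 3 (0.0846). Tnf was 1.70-fold lower (adjusted p = 0.0346), and lost its call without 6 h replicate 2 (0.109), 6 h replicate 3 (0.102), 24 h replicate 1 (0.0985) or 24 h replicate 3 (0.137). Il1b read 7.42, 6.80 and 7.04 and then 7.09, 7.23 and 6.82, a difference of -0.04 (SE 0.20). The part of glandular content in these differences was not tested beyond the values given.

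Among ligands of one receptor, Cxcl10 fell and Cxcl9 did not pass the test. Cxcl10, a ligand of CXCR3 on natural killer cells and T cells, stood at 11.85, 12.12 and 12.14 at 6 h and at 10.27, 10.43 and 9.57 at 24 h. It was 3.86-fold lower (adjusted p = 0.000974), still above the untreated 5.94 to 6.28. Cxcl9, another CXCR3 ligand, stood at 10.57, 11.24 and 11.36 and then at 10.97, 11.20 and 11.16, a difference of 0.06 (SE 0.25, adjusted p = 0.932). Whether Cxcl9 and Cxcl10 differed in their change was not tested. Ccl5 differed by 0.40 (SE 0.37). Of 17 chemokines of lymphocytes and dendritic cells, 2 were lower and 0 higher (1.41% of all genes lower). The count was 1 without 6 h replicate 2 or 24 h replicate 3, 3 without 1.5 h replicate 1 or 6 h replicate 1, and 0 against 6 h replicate 1 alone.

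Of 17 chemokines of neutrophils and monocytes, 3 were lower and 1 higher (1.41% and 2.03% of all genes). The higher count was 2 without 6 h replicate 1. The lower count was 5 without 6 h replicate 1, 0 without 6 h replicate 2 or 24 h replicate 3, 1 without 6 h replicate 3 or 24 h replicate 1, and 0 against 6 h replicate 1 alone. Ccl4 went from 9.73, 10.44 and 10.81 to 8.87, 9.08 and 8.59, 2.79-fold lower (adjusted p = 0.00795; 0.0528 without 6 h replicate 2 and 0.051 without 24 h replicate 3). Ccl2, which draws monocytes through CCR2, read 10.69, 11.70 and 11.84 and then 10.66, 10.97 and 10.62 (difference -0.66, adjusted p = 0.13). Cxcl5, a neutrophil attractant, was the member that rose, from 3.45, 3.88 and 3.5 to 5.47, 5.12 and 4.88, 2.91-fold (adjusted p = 0.000317). Its 6 h values lay near the untreated 3.12 to 3.44, and its difference was 1.70 against 6 h replicate 1 alone. Ccrl2, an atypical receptor that holds chemerin, was 3.55-fold lower (adjusted p = 0.00126).

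**Figure D3:**
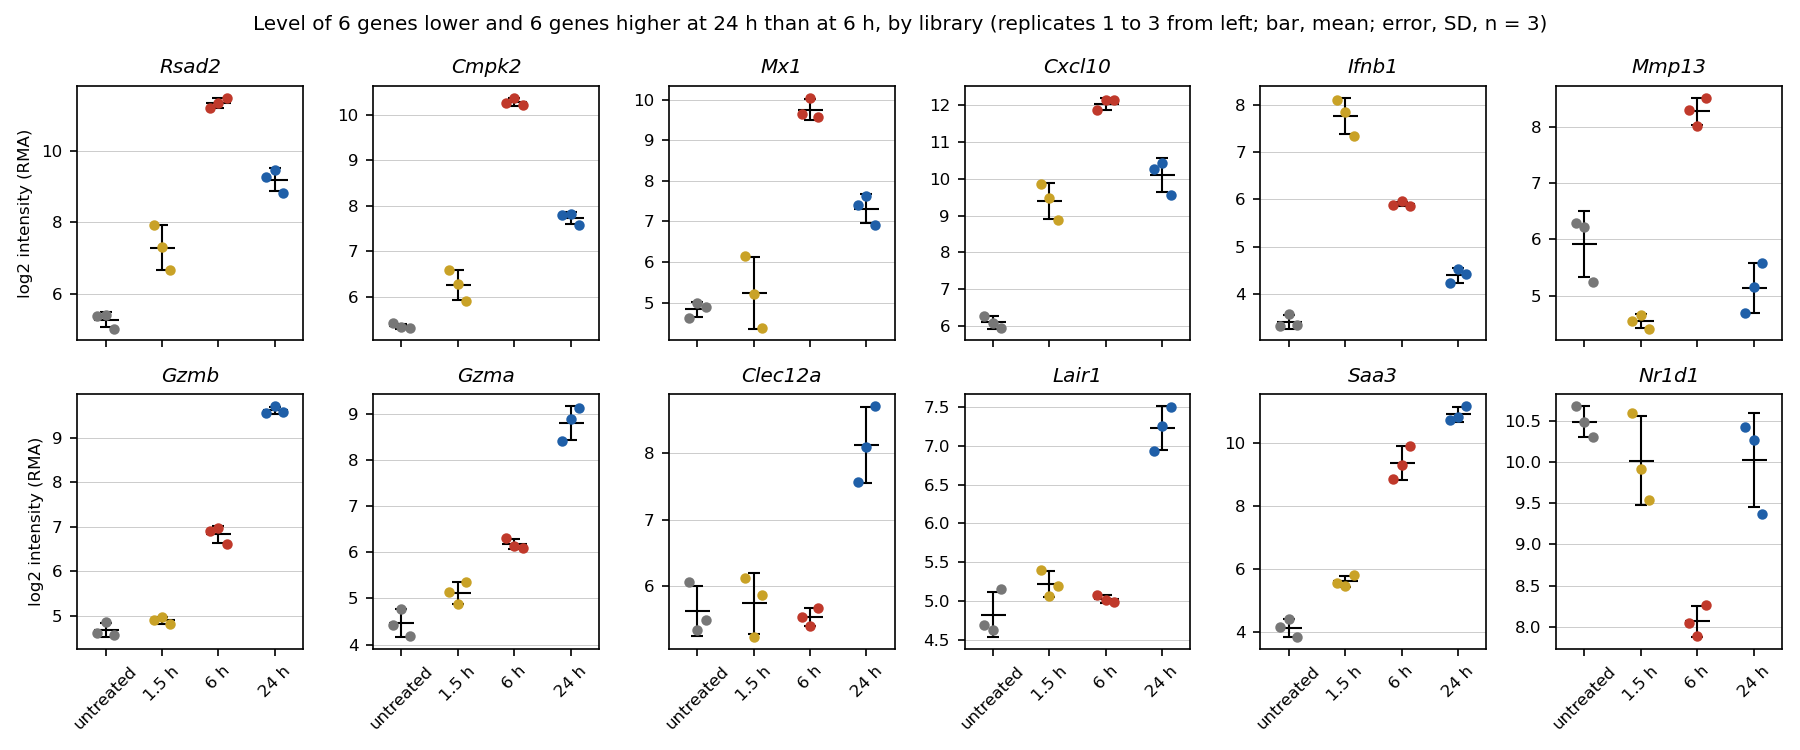
Log2 intensity (y axis) of 12 genes is plotted for each library at each time (x axis), with the mean and SD of 3. Ifnb1 and the antiviral genes fell from 6 h while staying above untreated skin, whereas Gzmb reached 9.56 to 9.71 at 24 h from 6.61 to 6.96.

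Of 24 genes of cytotoxic and natural killer cells, 8 were higher at 24 h, the granzymes Gzmb and Gzma and perforin among them, and 0 were lower (2.03% of all genes higher). The list's median difference was 0.40, and 5 of the 24 differences were negative. The count was 6 to 8 over the libraries left out and 6 with the glandular covariate, and 3 against 6 h replicate 1 alone. Gzmb, encoding granzyme B, went from 6.91, 6.96 and 6.61 to 9.56, 9.71 and 9.58. This was the gene with the smallest p of the comparison, 6.93-fold higher (difference 2.79, SE 0.12, adjusted p = 7.01e-08). Gzma, encoding granzyme A, went from 6.31, 6.14 and 6.09 to 8.41, 8.90 and 9.12, 6.17-fold higher (adjusted p = 2.11e-05). Against 6 h replicate 1 alone the differences of Gzmb and Gzma were 2.71 and 2.49 (adjusted p = 4.01e-05 and 0.00751). Both were the only called members of the 10 Gzm genes.

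Other called members of the list encode proteins of the cytotoxic granule and receptors of its cells. Nkg7, a granule membrane protein gene, went from 7.06, 7.18 and 6.60 to 8.52, 8.78 and 8.72, 3.32-fold higher (limma adjusted p = 0.000376). Prf1, encoding perforin, went from 6.26, 5.98 and 6.37 to 7.02, 7.91 and 7.60, 2.48-fold higher (adjusted p = 0.0035). Ncr1, the activating receptor NKp46 that marks natural killer cells, went from 4.88, 4.87 and 4.64 to 5.79, 6.60 and 5.94 (2.48-fold, adjusted p = 0.00525). Il2rb, a receptor chain shared by IL-2 and IL-15, went from 6.72, 6.32 and 6.30 to 7.51, 8.09 and 7.67 (2.48-fold, adjusted p = 0.00231). None of 18 T cell genes and none of 14 B and plasma cell genes changed (limma, with 0 of either list at an unadjusted p under 0.05). Cd3e read 8.59, 7.26 and 7.70 at 6 h and 7.28, 7.69 and 7.57 at 24 h, and Cd3g differed by 0.30 (SE 0.22). The B cell gene Cd79b was 7.29 in 6 h replicate 1 and 4.96 to 5.27 in the other 5 libraries.

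Several receptor genes of myeloid cells were among the greatest rises, by which they were chosen. Clec12a, an inhibitory receptor for uric acid crystals, went from 5.54, 5.41 and 5.67 to 7.56, 8.08 and 8.70, 5.97-fold higher (limma adjusted p = 0.000376). Lair1, an inhibitory collagen receptor, went from 5.08, 5.01 and 4.99 to 6.93, 7.25 and 7.50, 4.60-fold higher (adjusted p = 2.11e-05). Cd300ld went from 4.92, 4.40 and 4.94 to 6.87, 6.45 and 7.01, 4.06-fold higher (adjusted p = 0.000143). The 6 h values of Clec12a and Lair1 lay within the untreated range, and in all 3 genes every 24 h value lay above every 6 h and untreated value. Aif1, an actin-binding protein of macrophages, went from 6.94, 6.41 and 6.47 to 8.27, 8.65 and 8.89, 3.99-fold higher (adjusted p = 0.000267). Lrrc25, Lilra6 and Pirb were 3.18-fold, 2.89-fold and 2.15-fold higher.

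Of 34 monocyte and inflammatory macrophage genes, 3 were higher, 31 were not called and 0 were lower, with a median of 0.42 (2.03% of all genes higher). The count was 6 without 1.5 h replicate 1, 5 without 6 h replicate 1 or 24 h replicate 1, and 8 with arrays centred on their medians. It was 2 without 6 h replicate 2 or 24 h replicate 3, 3 with the glandular covariate, and 0 without the libraries high in Myl2 or against 6 h replicate 1 alone. The setting without the libraries high in Myl2 keeps only replicate 2 at 24 h, so the part of muscle content in these counts was not tested. By library the list stood 0.33 to 0.46 over the untreated mean at 6 h and 0.60 to 1.03 at 24 h. Clec4a2, an inhibitory lectin, was 2.70-fold higher (adjusted p = 0.00248). Ccr2, the monocyte receptor for Ccl2, went from 8.40, 7.61 and 8.01 to 9.0, 9.48 and 9.53 (2.51-fold, adjusted p = 0.0104; 0.0674 without 6 h replicate 2 and 0.061 without 24 h replicate 3). Fcgr1, a high-affinity antibody receptor gene, read 9.23, 9.14 and 9.43 and then 9.08, 9.30 and 9.46 (difference 0.01, SE 0.23). Of 21 genes of resident dermal macrophages, 0 were higher and 1 was lower, Cd209a (1.41% of all genes lower). Of 22 neutrophil genes 1 was higher, the lectin Clec4e (2 without 6 h replicate 1). S100a8 and S100a9, the calprotectin subunits, differed by -0.25 (SE 0.33) and -0.10 (SE 0.42). The call of Cd209a was lost without 6 h replicate 2 (adjusted p = 0.0927), 6 h replicate 3 (0.0642), 24 h replicate 1 (0.0547) or 24 h replicate 3 (0.0616), and that of Clec4e without 6 h replicate 2 (0.0873) or 24 h replicate 3 (0.0879).

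Of 25 acute phase and complement genes, 3 were higher and 0 lower (2.03% of all genes higher), and 1 was higher without 6 h replicate 2 or against 6 h replicate 1 alone. Saa3, an acute phase protein made in inflamed tissue, went from 8.84, 9.28 and 9.91 to 10.72, 10.81 and 11.16, from 3.85 to 4.42 in untreated skin. It was 2.94-fold higher at 24 h than at 6 h (limma adjusted p = 0.0035), and the difference was 2.06 against 6 h replicate 1 alone. Lcn2, an iron-binding antibacterial protein gene, went from 9.47, 7.21 and 6.97 to 9.12, 9.05 and 9.66 between the times. The single high 6 h library was again the one rich in glandular genes, and Lcn2 was not called (adjusted p = 0.137).

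Of 17 genes of MHC class I presentation, 14 were higher than untreated at each time, in comparisons that share samples with this one. The shares of all genes higher than untreated were 3.38% at 6 h and 2.55% at 24 h. Between 6 h and 24 h, 1 of the 17 was higher and 1 lower (2.03% and 1.41% of all genes). The higher count was 3 without 6 h replicate 1 or 24 h replicate 1 and 0 without 6 h replicate 2, and the lower count was 0 without 6 h replicates 2 or 3 or 24 h replicates 1 or 3. Tap1, the peptide transporter, differed by -0.23 (SE 0.14) and the immunoproteasome subunit gene Psmb8 by 0.36 (SE 0.15). Cd40, the costimulatory receptor, was 2.75-fold lower, from 7.99, 8.26 and 9.29 to 6.89, 7.24 and 7.03 (adjusted p = 0.00821), but differed by -0.93 against 6 h replicate 1 alone (adjusted p = 0.111). Ubd, a ubiquitin-like modifier gene that lies in the MHC region, rose from 6.25, 5.25 and 5.10 to 7.13, 7.52 and 8.10 (4.14-fold, adjusted p = 0.0202). The call of Ubd was lost without 6 h replicate 2 (0.105), 6 h replicate 3 (0.0739) or 24 h replicate 3 (0.107), and its difference was 1.33 against 6 h replicate 1 alone.

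Mmp13, which encodes a collagenase that opens fibrillar collagen, showed the greatest fall of all genes tested. It stood at 8.30, 8.01 and 8.50 at 6 h and at 4.70, 5.15 and 5.58 at 24 h, with untreated libraries at 5.25 to 6.29. The difference was -3.13 (SE 0.26, 8.75-fold, limma adjusted p = 4.19e-05), and -3.16 against 6 h replicate 1 alone. Of 24 matrix protease and inhibitor genes 2 were lower (1.41% of all genes lower). The count was 1 with the glandular covariate, with the replicate number as a block, against 6 h replicate 1 alone, and without any 1 of untreated replicates 1 to 3, 1.5 h replicate 2, 6 h replicates 2 or 3 and 24 h replicates 1 or 3, while Mmp13 kept its call without each library. Pdgfrb, the platelet-derived growth factor receptor of fibroblasts and pericytes, was 2.07-fold lower, from 8.53, 8.60 and 8.56 to 7.64, 7.85 and 7.04 (adjusted p = 0.00544). It was the 1 called gene of 30 fibroblast genes, a share near the 3.44% of all genes. The matrix proteoglycan Dcn was at 12.53 to 12.74 in all 6 libraries, but the fibroblast list as a whole was less even. Its summed log2 level was lowest in 24 h replicate 3 (253.9), the library with the lowest Pdgfrb value. For 24 h replicates 1 and 2 this sum was 267.7 and 271.6, within the 6 h range of 262.0 to 273.7. The part of fibroblast content in the fall of Pdgfrb was not tested.

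The counts of some metabolic lists are given beside 2.03% of all genes higher and 1.41% lower. Of 19 genes listed under cholesterol synthesis, 1 was lower, the cholesterol hydroxylase Ch25h, which is not itself a synthesis enzyme. The other 18 were not called. Of 23 prostaglandin and lipoxygenase genes, 2 were higher and 1 lower. Of 15 genes of arginine, tryptophan, nitric oxide and itaconate metabolism, 3 were lower (5 without 6 h replicate 1). For the prostaglandin list the higher count was 1 without any 1 of untreated replicates 1 or 3, 1.5 h replicates 2 or 3, 6 h replicates 2 or 3 and 24 h replicates 2 or 3. The lower count was 0 without 6 h replicate 2 or 24 h replicate 3. Ch25h, whose product 25-hydroxycholesterol blocks virus entry, went from 8.65, 9.85 and 10.11 to 7.05, 7.20 and 6.90, 5.61-fold lower (adjusted p = 0.00161). Its lowest 6 h value was in replicate 1, against which the difference was -1.60 (adjusted p = 0.0998). Gch1, which makes the cofactor of nitric oxide synthase, went from 8.11, 8.22 and 8.23 to 6.88, 6.93 and 7.13, 2.30-fold lower (adjusted p = 0.00544). Nos2, the inducible synthase itself, read 6.00, 6.46 and 7.09 and then 6.90, 7.75 and 7.34, a difference of 0.81 (adjusted p = 0.0973). Metallothionein genes Mt1 and Mt2, which bind zinc, were 1.72-fold and 1.71-fold lower (adjusted p = 0.00694 and 0.0035), although Mt1 was not called with the glandular covariate (0.0542). Ptgis, the prostacyclin synthase gene, was 1.65-fold higher (adjusted p = 0.00761).

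The clock genes Nr1d1, Dbp, Nr1d2 and Tef rose and Arntl fell. Of 18 clock genes, 4 were higher at 24 h and 1 lower (2.03% and 1.41% of all genes). These counts were 2 and 0 against 6 h replicate 1 alone, and 2 were lower without 6 h replicate 1. In the comparisons with untreated skin, which share samples with this one, 9 were lower at 6 h (2.71% of all genes lower) and 3 at 24 h (0.808% of all genes lower). The clock repressor gene Nr1d1, encoding REV-ERB alpha, stood at 8.04, 7.89 and 8.27 at 6 h and at 10.43, 10.27 and 9.37 at 24 h, 3.88-fold higher (limma adjusted p = 0.00286). Dbp, a clock output factor, went from 6.88, 6.80 and 6.77 to 8.12, 8.01 and 7.95, 2.31-fold higher (adjusted p = 4.27e-05). Nr1d2 and Tef were 1.89-fold and 1.47-fold higher. Arntl, encoding the activator BMAL1 that REV-ERB represses, moved the other way, from 7.12, 7.29 and 7.17 to 6.48, 6.57 and 6.41, 1.63-fold lower (adjusted p = 0.00229). Per1 differed by 0.36 (SE 0.19, adjusted p = 0.318). The clock time of collection is not in the labels, so hours after injection and hour of the day cannot be told apart.

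**Figure D4:**
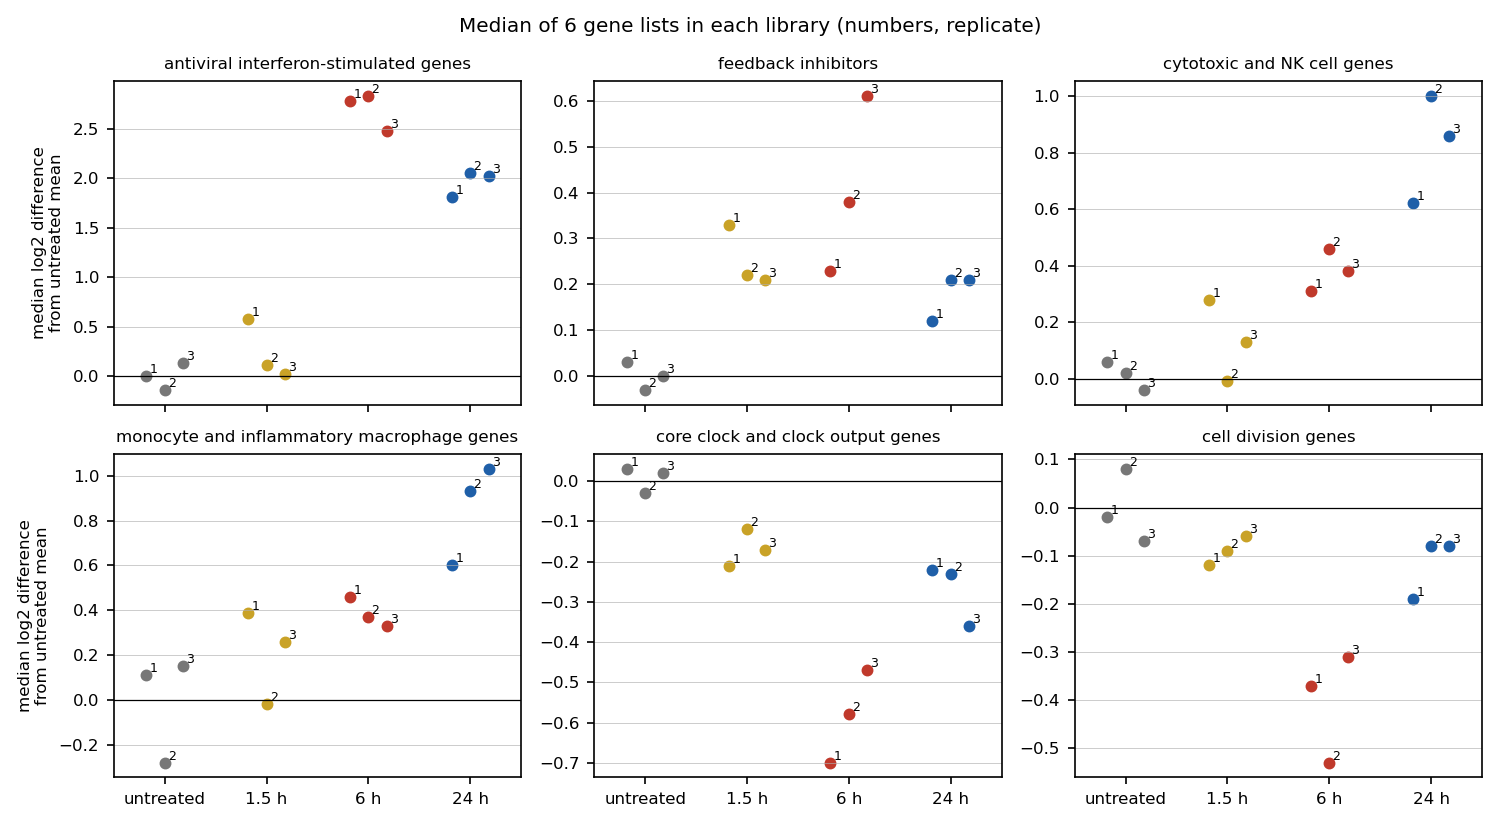
The median log2 difference from the untreated mean (y axis) is plotted for each library and time (x axis) in 6 gene lists, each point labelled with its replicate. The antiviral list lies at 2.48 to 2.83 at 6 h and 1.81 to 2.05 at 24 h, and the cytotoxic list at 0.31 to 0.46 and then 0.62 to 1.00.

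The counts of proliferation and housekeeping lists rested on single libraries. Of 52 cell division genes 8 were higher and 1 lower (2.03% and 1.41% of all genes). The higher count was 0 without 6 h replicate 2 or 24 h replicate 3, 2 without 6 h replicate 3, 1 without 24 h replicate 2, 4 without 24 h replicate 1, untreated replicates 1 or 3, or 1.5 h replicates 2 or 3, and 0 with the glandular covariate. Against untreated skin, in comparisons that share samples with this one, 17 were lower at 6 h and 0 at 24 h. The shares of all genes lower than untreated were 2.71% and 0.808%. Of 30 constitutive proteasome genes 11 were higher, with a median of 0.39 and values from 0.14 to 0.65. That count was 20 with arrays centred on their medians, 3 after quantile normalization and 1 after cyclic loess. It was 0 without 6 h replicate 2 or 24 h replicate 3, 1 without 6 h replicate 3, 2 without 24 h replicate 1, and 4 to 7 without 6 h replicate 1, 24 h replicate 2, untreated replicates 1 or 3, or 1.5 h replicates 2 or 3. All 28 mitochondrial respiration genes had a positive difference (0.09 to 0.47) and 0 were called by limma, with 11 at an unadjusted p under 0.05, as were 4098 of all genes (20.6%).

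**Figure D5:**
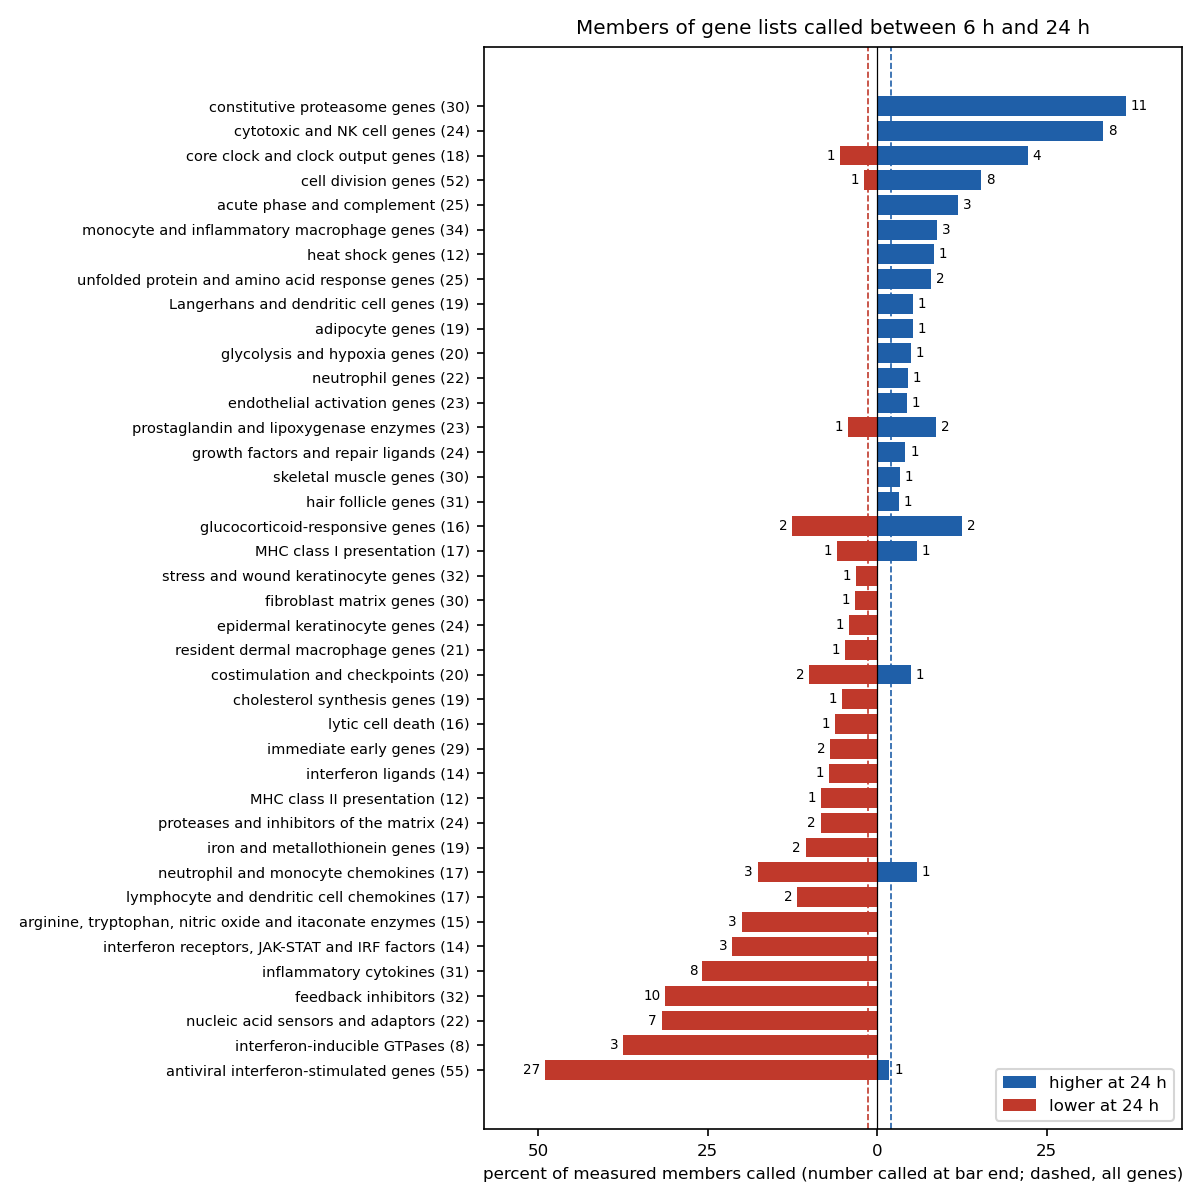
The percentage of measured members (x axis) that were lower (left, red) or higher (right, blue) at 24 h than at 6 h is plotted for each list with a call (y axis, size in brackets), with dashed lines for all genes. The antiviral list has 27 lower of 55, and the cytotoxic list 8 higher of 24.

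Some of the most changed genes belonged to none of the groups described so far. Prg4, encoding the lubricant lubricin, was 3.51-fold higher (limma adjusted p = 0.0119), a call lost without 6 h replicate 2 (0.0749), 6 h replicate 3 (0.0517) or 24 h replicate 3 (0.0604). Pck1, a glucose production enzyme gene that also serves fat cells, went from 7.45, 5.89 and 6.34 at 6 h to 8.49, 8.50 and 7.48 at 24 h, 3.03-fold higher (adjusted p = 0.0313). It was the 1 called member of 19 adipocyte genes (2.03% of all genes higher), and 4 were called without 6 h replicate 1. Of the 19, 18 had a positive difference, beside 10538 of all 19938 genes. The summed log2 level of the adipocyte list was 179.8, 161.2 and 165.6 at 6 h, 169.5 to 179.4 at 24 h and 174.7 to 178.6 in untreated skin. Pck1 differed, against 6 h replicate 1 alone, by 0.71 (adjusted p = 0.62), and with the glandular covariate by 1.04 (adjusted p = 0.19). The part of fat content in the difference was not tested beyond these values. The call of Pck1 was lost without 6 h replicates 2 or 3 (0.15 and 0.0927) or 24 h replicates 1 or 2 (0.09 and 0.0698). Pdk4, which favours the use of fatty acids, was 3.01-fold higher. It was 1 of 2 higher among 16 glucocorticoid-responsive genes, of which 2 were lower (2.03% and 1.41% of all genes). That higher count was 0 without 6 h replicates 2 or 3, and 1 without any 1 of the 3 untreated libraries, 1.5 h replicate 1 and 24 h replicates 1 or 2. Its call was lost without 6 h replicate 2 (0.0511) or 6 h replicate 3 (0.0533), and its difference was 1.31 against 6 h replicate 1 alone (adjusted p = 0.35). Among lower genes, Rrad, a small GTPase of muscle calcium channels, was 3.25-fold lower and Gdap10 3.5-fold lower. Rrad lost its call without 6 h replicates 2 or 3 (0.105 and 0.0572) or 24 h replicates 1 or 3 (0.0577 and 0.091), and Gdap10 without 6 h replicate 2 (0.104) or 24 h replicate 3 (0.0914). The differences of Prg4 and Rrad against 6 h replicate 1 alone were 0.94 and -0.59 (adjusted p = 0.446 and 0.412).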

How the data were processed

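The deposited values are log2 probe set intensities of 12 Affymetrix Mouse Gene 1.0 arrays. The authors made them with RMA, and the submitters' processing notes name Affymetrix Expression Console, version 1.1, as the software. Per the labels, total RNA of skin biopsies was amplified with a whole-transcriptome kit before labelling, which can compress or distort differences. Of 35556 probe sets, 21789 carried 1 gene symbol in the platform annotation, 1621 several and 12146 none. The probe set with the highest mean was kept per gene (999 genes had more than 1), which gave 19938 genes. Array medians were 5.53 to 5.76, and depth has no meaning here: the 3 arrays per group limit the precision. Correlations between arrays were 0.984 to 0.985 within 6 h and 0.98 to 0.987 within 24 h.

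limma 3.58.1 (R 4.3.3) was fitted over all 12 arrays in 4 groups, which share 1 spread (8 residual degrees of freedom), with eBayes and Benjamini-Hochberg adjustment over all genes. The script was tested on simulated data. The fit gave the contrasts of 24 h against 6 h, 24 h against untreated and 6 h against untreated. Genes were named by a rule: the 15 greatest rises and falls among called genes whose groups did not overlap, up to 4 called members per list and direction, the most changed member not called, and a set of key genes, with predicted genes skipped. The lists and all members were chosen with earlier results of these data known. Promoters and RefSeq symbols came from RefSeq GRCm38.p6. Alternatives covered left-out libraries, scaling, variance model, filter, floor, probe set choice, thresholds and the replicate number as a block.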

Additional observations from a re-analysis of the deposited data

How the results depend on the processing

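The signs of the named called genes did not reverse under any alternative run. Leaving out 1 of the 12 libraries at a time gave 142 to 877 changed genes between 24 h and 6 h (53 to 575 higher, 89 to 302 lower), 423 to 756 between 24 h and untreated, and 712 to 1364 between 6 h and untreated. Without 6 h replicate 2, all 142 called genes were among the 685. Without the libraries high in Glycam1 (6 h and 1.5 h replicates 1) 652 were higher, and without those high in Myl2 (24 h replicates 1 and 3, 1.5 h replicates 1 and 2) 40 changed (18 higher, 22 lower). With only the 6 samples compared 247 changed (107 higher, 140 lower), and without moderation of the variance 239 (123 higher, 116 lower). The filter on dim genes gave 1054 (735 higher), centring on medians 1133 (909 higher) and cyclic loess 241 higher. An adjusted p under 0.01 left 149 (53 higher, 96 lower), and at least 2-fold left 135 (61 higher, 74 lower). Settings added after seeing the data gave 37 against 6 h replicate 1 alone (13 higher, 24 lower) and 185 with the glandular covariate (57 higher, 128 lower). The causes were not tested.

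With the replicate number as a block 616 genes changed, 551 of them among the 685. Between 6 h and 24 h, samples of the same number did not all deviate together (correlations of -0.05, 0.11 and 0.22 for replicates 1, 2 and 3). Pairs of different numbers gave -0.22 to 0.1. Whether samples of one number share more than the number was not tested. The deposited values carry no measure of background. For values under the median probe set level of 5.63, whether the signal lies above background was not tested. Among them were Ifna4, Cxcl5, Ifnb1 at 24 h, and Lair1, Cd300ld and Ncr1 at 6 h.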

Other observations

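Gene families were counted after the values were seen, and their counts are descriptions. Of all genes tested, 2.03% were higher at 24 h than at 6 h and 1.41% lower. Among myeloid receptor families, 5 of 11 Clec4 genes were higher and 0 lower, with a median difference of 0.68 on the log2 scale. The calls of Clec4a3, Clec4b1 and Clec4e were each lost without 6 h replicate 2 or without 24 h replicate 3. Those of Clec4a3 and Clec4b1 were also lost without 6 h replicate 3, and that of Clec4b1 without 24 h replicate 1. Clec4a1, which was 2.51-fold higher, stood at 8.86, 8.31 and 8.34 at 6 h and at 9.51, 10.01 and 9.98 at 24 h. Of 8 Cd300 genes, whose products bind lipids of dying cells, 4 were higher and 0 lower (median 0.52). The calls of Cd300a, Cd300c2 and Cd300lb were each lost without 6 h replicate 2. That of Cd300a was also lost without 24 h replicate 3. Cd300lb lost its call without any 1 of 10 of the 12 libraries (limma adjusted p up to 0.153). The Siglec family (6 genes) and the Ms4a family (19 genes) had 0 calls. Of 6 genes of the Lil, Lair and Pir families of inhibitory and activating receptors, 3 were higher, with Lilra6 at 6.53, 6.19 and 5.66 and then 7.45, 7.78 and 7.77. Gpr65, a receptor that senses acid and is found on leukocytes, was 2.57-fold higher (6.09, 5.88 and 6.27, then 7.22, 7.59 and 7.51; limma adjusted p = 0.00567).

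Of 11 Parp genes, which add ADP-ribose to proteins, 5 were lower and 0 higher (median -0.40), beside 1.41% of all genes lower and 2.03% higher. Of 59 Trim genes, many of which encode antiviral ubiquitin ligases, 5 were lower and 1 higher. Several steady falls lay outside the lists. Dcp2, the enzyme that removes the mRNA cap, went from 8.55, 8.68 and 8.53 at 6 h to 7.34, 7.49 and 7.38 at 24 h, with untreated libraries at 7.29 to 7.46. It was 2.27-fold lower (adjusted p = 2.83e-05), and the difference was -1.15 against 6 h replicate 1 alone (adjusted p = 0.00787). The mitochondrial phosphatase gene Ppm1k was 2.53-fold lower, the histone methyltransferase gene Setdb2 2.84-fold lower and the death-domain associated protein gene Daxx 2.30-fold lower. Ppm1k stood at 6.32, 6.35 and 6.51 at 24 h, within or below its untreated range of 6.39 to 6.69. Cd69, an early activation marker of lymphocytes, fell from 7.04, 6.78 and 6.91 to 5.51, 5.53 and 4.75 (3.14-fold, adjusted p = 0.00183). Cyp1a1, the target gene of the aryl hydrocarbon receptor, went from 6.60, 7.11 and 7.24 to 5.47, 5.90 and 4.97 (2.90-fold, adjusted p = 0.00326), and 2 of the 3 values at 24 h lay below all untreated libraries (5.87 to 6.41). These genes were chosen after their values were seen.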
